A study of Rattus norvegicus with 14 samples.

Results

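The comparison described here sets rats that lacked vitamin D in the diet when the muscle was taken against rats that were supplied with it. Its members were chosen by title: the 6 arrays of the depletion diet against 8 arrays pooled as supply, 4 of the control diet and 4 of depletion followed by repletion, which makes up all 14 arrays of the study. The tissue was plantaris, a fast calf muscle, from Wistar rats, hybridised in 1 colour with 1 muscle per array. The control diet held 1000 UI of vitamin D per kg. The sources used here do not give the vitamin D content of the other diets, the feeding times or the ages. The titles call the arrays biological replicates. Every repletion rat had also been depleted earlier, so the supply pool holds rats with and without a past lack.

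Vitamin D is turned in liver and kidney into a hormone that binds the vitamin D receptor, a nuclear receptor that pairs with a retinoid X receptor on DNA. The hormone is best known for calcium uptake in gut and kidney, and its lack is linked with muscle weakness. Adult skeletal muscle has little of the receptor, and how far muscle fibres respond directly is debated.

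A level is the log2 signal minus that of the array's 75th percentile, so a level of 0 marks a bright probe and 1 more unit marks a signal doubled. A difference is depletion minus supply from limma with the slide as a block, given ± its standard error, and a probe was called at an adjusted p under 0.05. The arrays lay on 5 slides, with 1 depletion and 3 supply arrays on slide 1, 1 and 2 on slide 2, 2 and 1 on slide 3, and 1 of each on slides 4 and 5. The share of spots well above background was 82.8% to 88.1%, and 23 of the 23 muscle markers on the array were so on all 14 arrays. In a principal component analysis, component 1 (39.1% of variance) followed the slide, with a share of 0.996 explained by it and 0.000625 by the pools.

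Both the labels and the levels set depletion arrays apart. For depletion replicate 1 the title and the diet field disagree, since the field gives repletion. The title was followed, and results are also given without this array. Depletion replicates 1 and 2 carried transcripts of liver. Alb, the main plasma protein made by liver, had levels of 0.93 and 1.06 on these 2 arrays. On the other depletion arrays Alb was at -8.47, -6.37, -6.30 and -9.32. The supply arrays spanned -9.59 to -5.67 for Alb, so both arrays stood far above all 12 others. Ttr, which carries thyroid hormone and retinol in plasma, was at -1.01 and 0.27 on these 2 arrays and at -5.57 to -4.61 on the others. Of 20 liver genes listed after these values were seen, 19 were measured. Over all depletion arrays against supply, 17 were higher and 2 lower. Not every member stood above supply on both arrays. Ahsg was at 0.54 and 0.02 there and 0.08 to 0.50 in supply, and Cps1 at -9.91 and -5.25 against -9.32 to -5.50. The summed linear level of the measured genes was 5.87 and 6.79 on depletion replicates 1 and 2. It was 1.74 to 2.38 on the other depletion arrays and 1.80 to 2.07 on the supply arrays. Leading results are therefore also given without both arrays, a choice made after the data were seen. They were the only depletion arrays on slides 1 and 2. With slide as a block, the supply arrays of those slides then add nothing to a difference. The same holds for slide 1 when depletion replicate 1 alone is left out. A change in such a fit can come from the lost slide as well as from the array itself.

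No probe passed the test between lack and supply. Of 26391 probes, 0 were called (0%), with a lowest adjusted p of 0.662 from limma. At an unadjusted p under 0.05 there were 1735 probes (6.57%), of which 627 were higher (2.38%) and 1108 lower (4.2%) in depletion. With the authors' own normalized values the split was 868 higher and 988 lower. Without depletion replicate 1, limma again called 0 probes, and 943 (3.57%) had an unadjusted p under 0.05. Without depletion replicates 1 and 2, limma called 1 probe (0.00379%), and 1282 (4.86%) had an unadjusted p under 0.05.

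That 1 probe measures Zp2, a protein of the egg coat, and it is named here after its values were seen. Its difference without both arrays was 3.02 ± 0.20, with an adjusted p of 0.00875 from limma. With all arrays the difference was 1.12, and depletion replicate 2, left out of that fit, had a level of -6.63. Its control arrays lay at -3.15, -3.25, -2.36 and -8.10, its repletion arrays at -3.34, -3.14, -5.44 and -5.14, and the other depletion arrays at -1.91, -2.81, -2.32, -4.91 and -2.09. The diets overlapped over all arrays, and depletion was the higher within slides 1, 3, 4 and 5 and the lower on slide 2.

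Set against each diet alone, which shares the same 6 depletion arrays, 1274 probes (4.83%) had an unadjusted p under 0.05 against control and 914 (3.46%) against repletion. Repletion against control gave 524 (1.99%). By limma, 0 probes were called in each of these, with lowest adjusted p values of 0.833, 0.933 and 1.00.

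Vdr, the receptor, lay at -5.53, -3.97 and -3.51 in depletion (lowest, median and highest of 6 arrays) and at -4.95, -4.05 and -3.09 in supply (of 8). The ranges overlapped over most of their length. The difference was -0.37 ± 0.18, and -0.47 ± 0.23 without depletion replicates 1 and 2, with an adjusted p of 0.701 from limma on all arrays. Set against control alone it was -0.47 and against repletion alone -0.30. It was -0.19 without control replicate 4 or depletion replicate 5, which share slide 4, and -0.14 with no block.

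The retinoid X receptors, the partners of Vdr, differed by -0.17 ± 0.11 for Rxra, -0.08 ± 0.09 for Rxrb and -0.33 ± 0.22 for Rxrg. Cyp27b1, the enzyme for the active hormone, differed by -0.04 ± 0.09 and turned sign under some settings. Cyp27a1, one of the enzymes that hydroxylate vitamin D, differed by -0.26 ± 0.18, and by -0.10 without depletion replicate 1. None of the probes for Cyp24a1, which breaks the hormone down, Cyp2r1, a hydroxylase of liver, or Gc, the plasma carrier, passed the filter on dim probes. Of 17 measured genes of receptor, cofactors and metabolism, 0 were called, 6 were higher and 11 lower, with a median of -0.08. Without depletion replicate 1, and also without both arrays, 2 were higher and 15 lower, with medians of -0.13 and -0.17. The same median over all 17470 genes was -0.03, with 7508 higher and 9962 lower. Of 18 measured genes known as vitamin D targets in other tissues, 10 were higher and 8 lower, with a median of 0.06. That median was -0.05 without depletion replicate 1 and -0.04 without both arrays. The DR3 element, the motif that the receptor pair binds, was found in 0 of 13 promoters of these targets and in 0.0947% of 27457 promoters over the 250 bases before the start (RefSeq, GRCr8). At so low a share, 0 of 13 was nearly certain for any genes, so it does not tell whether these targets lack the element.

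The genes without any overlap between the pools were few. Of 17246 genes with a value on every array, 1 was higher on all 6 depletion arrays than on all 8 supply arrays (0.0058%) and 11 were lower (0.0638%). Those named here were chosen after their values were seen. Such genes are by definition separated within each of the 5 slides too, so that adds no support. Of the 12, 9 stayed separated after slide effects were removed. Without depletion replicate 1 the numbers were 5 (0.029%) and 33 (0.191%), and without depletion replicates 1 and 2 they were 57 (0.33%) and 83 (0.481%), with fewer arrays to separate.

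Trit1, which modifies a base in transfer RNAs, had the smallest p of any gene by its brightest probe. Its 6 depletion arrays lay at -2.43, -2.11 and -1.88 (lowest, median, highest) and its 8 supply arrays at -1.81, -1.47 and -1.30. The highest depletion array was below the lowest supply array. Its mean was -2.10 ± 0.21 (SD, n = 6) in depletion and -1.50 ± 0.16 (SD, n = 8) in supply. The difference was -0.54 ± 0.08, with an adjusted p of 0.662 from limma, and -0.61 ± 0.11 without depletion replicates 1 and 2. It was -0.48, -0.45, -0.62, -0.83 and -0.37 within slides 1 to 5. Its probe lies at chr5:142371866-142371925 of rn4, and which part of the gene that is was not determined here.

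Birc6, a very large protein that restrains cell death, lay at -3.44, -2.70 and -2.18 in depletion and at -2.04, -1.96 and -1.81 in supply. Supply arrays were close together, while depletion arrays spread more widely and all lay lower. The difference was -0.75 ± 0.13, with an adjusted p of 0.688 from limma, and -0.96 ± 0.14 without depletion replicates 1 and 2.

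Lpcat1, which remodels membrane phospholipids, lay at -8.16 to -7.66 in depletion and -7.56 to -7.04 in supply, but its probe was well above background on only 1 of 6 depletion arrays. Its difference of -0.55 was -0.15 with normexp background correction and -0.06 with the authors' values. Stam2, a sorting protein of endosomes, was the 1 gene higher without overlap, at -4.49 to -4.40 against -4.81 to -4.54. Its difference of 0.22 ± 0.07 was 0.07 with normexp background correction and 0.15 with the authors' values. Mapk9, a stress-activated kinase, differed by -0.32 ± 0.09 and Rabgap1, a regulator of small GTPases, by -0.32 ± 0.08. Blmh, a cysteine protease, differed by -0.23 ± 0.07. Tcf4, a transcription factor, differed by -0.19 ± 0.08. Trim23, a ubiquitin ligase, Pam, which amidates peptide hormones, and Psmg2, a proteasome assembly factor, differed by -0.33 ± 0.10, -0.38 ± 0.13 and -0.17 ± 0.07.

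**Figure D1:**
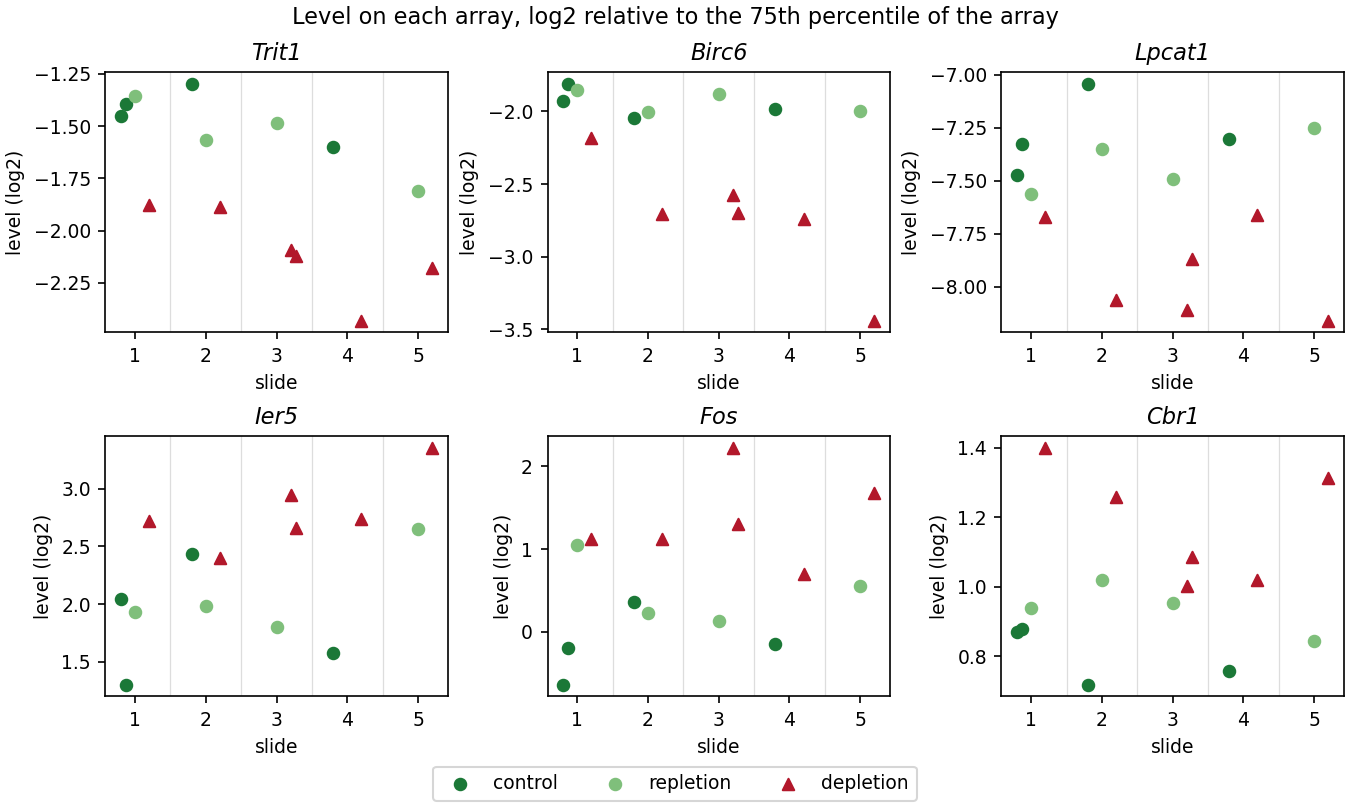
Level on each array (y axis, log2 relative to the 75th percentile of the array) by slide (x axis) for 6 genes, with circles for control and repletion and triangles for depletion. Trit1, Birc6 and Lpcat1 were lower on every depletion array than on every supply array, while on 5 of 6 depletion arrays Ier5, Fos and Cbr1 were higher than on every supply array.

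Among the genes with the smallest p that were higher in depletion, immediate early genes stood near the top. These are genes switched on within minutes of a stimulus, such as contraction. Ier5, one of them, lay at 2.40, 2.73 and 3.35 in depletion and 1.30, 1.96 and 2.65 in supply. On 5 of 6 depletion arrays it was above every supply array. The difference was 0.79 ± 0.17, with an adjusted p of 0.701 from limma, and 0.96 ± 0.21 without depletion replicates 1 and 2.

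Fos, which pairs with Jun proteins to form the AP-1 factor, lay at 0.70, 1.21 and 2.22 in depletion and -0.63, 0.18 and 1.05 in supply. Depletion replicate 5 was the lowest depletion array and repletion replicate 1 the highest supply array, and only these overlapped. The difference was 1.1 ± 0.27, and 1.24 ± 0.40 without depletion replicates 1 and 2. It was 1.34 against control and 0.92 against repletion, which share the depletion arrays.

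Of 28 measured immediate early genes, 0 were called, 20 were higher and 8 lower, with a median of 0.21 against -0.03 for all genes. Of these 28, 6 had an unadjusted p under 0.05, all on the higher side, where 2.12% of all genes lay. Those 6 were Ier5, Fos, Btg2, Btg1, Junb and Myc, named after their values were seen. Btg2, which slows the cell cycle, lay at 1.88, 2.45 and 3.03 in depletion and 1.34, 1.81 and 2.34 in supply. Its difference was 0.56 ± 0.18. Junb, a partner of Fos, differed by 0.47 ± 0.16, Btg1 by 0.29 ± 0.10 and Myc, a growth regulator, by 0.53 ± 0.23. The values of Btg1 and Myc were 0.19 and 0.28 without depletion replicate 1. Without depletion replicates 1 and 2 the median was 0.34, with 24 higher and 10 at an unadjusted p under 0.05 against 1.89% of all genes. The list's median within slides was near 0 on slide 1, -0.05 on slide 2 and then 0.34, 0.58 and 0.34 on slides 3 to 5.

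The promoters of the whole immediate early list were read to see which elements its members share. The cyclic AMP response element TGACGTCA, searched on both strands in the 250 bases before the start, was in 5 of 20 promoters found (25.0%) and in 1.7% of all 27457. The CArG box, the site of serum response factor, was in 4 of 20 (20%) and in 1.5% of all. TGANTCA, the AP-1 element, was in 0 of 20 and in 6.36% of all. Jund, Ier2, Btg2, Dusp1 and Maff held the first element, and Egr1, Egr2, Klf6 and Zfp36 the CArG box. Of the immediate early genes named above, only Btg2 held one of these, and Fos had no promoter to search. The sequence before Btg2 (GRCr8 chr13:48087691-48087940, minus strand, RefSeq) is shown. It holds the cyclic AMP response element, in capitals, at -201 to -194 from the start.
Btg2: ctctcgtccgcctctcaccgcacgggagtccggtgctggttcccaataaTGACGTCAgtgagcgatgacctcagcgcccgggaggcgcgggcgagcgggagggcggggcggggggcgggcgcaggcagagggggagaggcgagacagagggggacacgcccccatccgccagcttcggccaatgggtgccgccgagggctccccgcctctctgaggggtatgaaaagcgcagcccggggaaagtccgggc

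Genes of the cytosolic ribosome were higher by small amounts in depletion. Of 98 measured, 94 were higher and 4 lower, with a median of 0.16, and 0 were called. Of these 98, 27 had an unadjusted p under 0.05, all on the higher side, against 2.12% of all genes. The count at that threshold was 1 without depletion replicate 1, against 1.07% of all genes, and the median was 0.10. Without depletion replicates 1 and 2 the count was 14, against 1.89% of all genes. The number higher was 94 and 92 in these fits. The median within slides was 0.35, -0.02, 0.14, 0.16 and 0.12.

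Rps7, a protein of the small subunit, lay at 5.53, 5.64 and 5.83 in depletion and 5.27, 5.35 and 5.53 in supply. On 5 of 6 depletion arrays it was above every supply array. The difference was 0.26 ± 0.07, and 0.27 ± 0.10 without depletion replicates 1 and 2. Rpl35a, of the large subunit, differed by 0.22 ± 0.08.

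Ribosomal protein mRNAs begin with a pyrimidine tract by which their translation is controlled together. A C within 2 bases of the start followed by at least 4 pyrimidines was found for 36 of 77 ribosomal genes with a promoter (46.8%) and for 8.48% of all 27457. The starts of Rps7 (GRCr8 chr6:50999426-50999485, minus strand) and Rpl35a (chr11:81235002-81235061, minus strand) are shown as the named genes with such a tract. Each sequence runs from 40 bases before the start to 20 after it. Capitals mark the unbroken run of pyrimidines that holds the tract. In both genes that run begins before the start.
Rps7: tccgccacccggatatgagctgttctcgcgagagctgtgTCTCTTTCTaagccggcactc
Rpl35a: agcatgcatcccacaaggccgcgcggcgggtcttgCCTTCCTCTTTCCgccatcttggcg

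Splicing factors of the hnRNP and SR families were 25 higher and 6 lower of 31, with a median of 0.11 (0.07 without depletion replicate 1), and the median was above 0 on each of the 5 slides. At an unadjusted p under 0.05, 4 were higher, against 2.12% of all genes, named after their values were seen. Hnrnpa1, which binds pre-mRNA, lay at 2.08, 2.39 and 2.84 in depletion and 1.45, 1.86 and 2.21 in supply. Its difference was 0.55 ± 0.13, and a dimmer probe of the same gene gave 0.24 ± 0.12. Srsf3, Tra2b and Hnrnpa3 differed by 0.26 ± 0.09, 0.25 ± 0.09 and 0.33 ± 0.13. The probes of a gene disagreed for Srsf3, whose other probe gave -0.04 ± 0.12, and for Hnrnpa3, whose other 3 probes gave 0.13, 0.03 and 0.08. Hnrnpa3 was also 0.14 without depletion replicate 1.

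Slow fibre genes lay to the higher side in depletion, with slides that differed in sign. Of 20 measured, 20 were higher, with a median of 0.36 and 1 at an unadjusted p under 0.05, against 2.12% of all genes. Without depletion replicate 1, 20 were higher with a median of 0.27 and 0 at that threshold, against 1.07% of all genes. Without both arrays 19 were higher with a median of 0.58 and 1 at that threshold, against 1.89%. Within slides the median was 0.70, -0.49, 0.04, 0.82 and 0.94. Ankrd2, a stretch-responsive protein most abundant in slow fibres, lay at 4.87, 5.69 and 6.37 in depletion and 4.12, 4.49 and 5.67 in supply, with overlap. Its difference was 0.86 ± 0.34, 0.54 ± 0.35 without depletion replicate 1, and 1.05 ± 0.29 without both. Sln, an inhibitor of the calcium pump, differed by 0.69 ± 0.32 and Pln, its relative, by 0.23 ± 0.12. In whole muscle, fewer fibres of a type and less RNA per fibre cannot be told apart. Of 18 fast fibre genes, 3 were higher and 15 lower, with a median of -0.10, and without both arrays 8 were higher and 10 lower, with a median of -0.05.

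Of 30 genes of glycolysis and glycogen, 4 were higher and 26 lower, with a median of -0.19, and 3 lower at an unadjusted p under 0.05 against 4.06% of all genes. Among these, and named after their values were seen, were Pkm, which makes pyruvate, at -0.52 ± 0.21, and Gpd1, a glycerol phosphate dehydrogenase, at -0.62 ± 0.27. Without depletion replicate 1 the median was -0.15, with 1 at that threshold against 2.36% of all genes. Without both arrays the median was -0.18, with 0 against 2.67%. Pkm and Gpd1 were then -0.34 and -0.37 without the former array and -0.39 and -0.43 without both. On slide 3 the median of the list was 0.16, and Pkm and Gpd1 differed there by 0.31 and 0.24. Fatty acid genes had a median of 0.06, with 18 of 30 higher and 5 of these at an unadjusted p under 0.05, against 2.12% of all genes. That number was 1 without depletion replicate 1, against 1.07% of all genes, and 1 without both arrays, against 1.89%. A pair of the 5 is named after their values were seen. Etfb, which passes electrons from fatty acid oxidation to the respiratory chain, differed by 0.31 ± 0.12, and Cd36, which takes fatty acids into the cell, by 0.32 ± 0.13. Without both arrays Etfb was 0.43 ± 0.14 and Cd36 0.07 ± 0.14. Complex I genes had a median of -0.06 that was 0.09 without depletion replicate 1, with -0.51 on slide 1 alone.

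Genes of excitation-contraction coupling, which link the nerve signal to calcium release, were lower for 23 of 25, with a median of -0.14. At an unadjusted p under 0.05, 5 were lower, against 4.06% of all genes, named after their values were seen. Camk2g, a calcium-dependent kinase, lay at -1.50, -1.0 and -0.66 in depletion and -0.84, -0.60 and -0.46 in supply. Its difference was -0.40 ± 0.12, -0.26 without depletion replicate 1, and -0.38 ± 0.11 without both. Cacng1 and Cacna2d1, subunits of the calcium channel, differed by -0.31 ± 0.13 and -0.25 ± 0.10. Trdn, which anchors the calcium release channel, differed by -0.21 ± 0.09 and Jph2, which holds the membranes together, by -0.32 ± 0.14. Without both arrays Cacng1 was -0.25, Cacna2d1 -0.08, Trdn -0.22 and Jph2 -0.09. The median of the list was then -0.09, 18 of 25 were lower and 1 of these had an unadjusted p under 0.05, against 2.67% of all genes.

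Other named genes were spread over many functions. Deptor, an inhibitor of the growth kinase mTOR, lay at -2.40, -1.51 and -0.98 in depletion and -1.09, -0.77 and -0.63 in supply. Only depletion replicate 2 reached into the supply range. Its difference was -0.77 ± 0.17, -0.51 without depletion replicate 1, and -0.59 ± 0.13 without both. Nfic, a transcription factor, differed by -0.55 ± 0.12, and Phospho1, a phosphatase known from bone mineral formation, by -0.58 ± 0.13. Cbr1, a carbonyl reductase, lay at 1.00, 1.17 and 1.40 in depletion and 0.72, 0.87 and 1.02 in supply, a difference of 0.35 ± 0.08. Mogat1, which makes diacylglycerol, differed by 1.00 ± 0.25, and by 0.57 ± 0.27 without depletion replicates 1 and 2. Il21, a cytokine, had a probe well above background on only 1 of 6 depletion arrays and 5 of 8 supply arrays. Its difference of -0.98 ± 0.17 therefore rests on dim spots, and was -0.23 with normexp background correction and -0.13 with the authors' values.

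Fabp1, the fatty acid binding protein of liver, lay at -3.44, -3.13, -6.75, -6.87, -3.97 and -6.79 on depletion replicates 1 to 6 and at -7.09 to -6.10 in supply. Replicates 1, 2 and 5 were high and the other 3 lay within the supply range. Its difference was 1.87 ± 0.49, 0.83 with normexp or the authors' values, and 0.77 ± 0.49 without depletion replicates 1 and 2, the arrays with Alb above all others.

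Markers of other cells were followed as whole lists. Red blood cell genes had the highest median, 0.47, with 9 of 11 higher, and a median of -0.01 without depletion replicates 1 and 2. Their summed linear level was 76.3 to 302.1 in depletion and 85.7 to 173.6 in supply. Hbb, a globin, differed by 0.63 ± 0.27, and by 0.14 ± 0.32 without both arrays. Macrophage genes were higher for 22 of 25, with a median of 0.16, 0.02 without depletion replicate 1 and -0.15 without both arrays, and a summed level of 29.0 to 81.9 against 28.7 to 51.1. Against control alone 23 were higher, with a median of 0.48, and against repletion alone 9, with a median of -0.07. Lgals3, a lectin of macrophages, differed by 0.57 ± 0.27, and by 0.20 without depletion replicate 1. Schwann cell genes had a median of -0.26, with 14 of 18 lower. Their summed level was 4.37 to 5.83 in depletion and reached 33.4 in supply, on repletion replicate 2, and without that array the median was -0.12. It was -0.10 without depletion replicates 1 and 2, and 0.06 against control alone, with 11 of 18 higher. Fibroblast genes had a median of -0.20, with 22 of 29 lower, and 0.02 without both arrays. Their part in the results above was not tested.

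Cytokine and NF-kB genes were higher for 25 of 32, with a median of 0.22, and 4 were so at an unadjusted p under 0.05, against 2.12% of all genes. The median was 0.08 without depletion replicate 1, with 2 higher and 1 lower at that threshold, against 1.07% and 2.36% of all genes. Without both arrays the median was 0.14, with 1 and 1, against 1.89% and 2.67%. Cxcl1, a chemokine, lay at -5.81, -5.13 and -4.52 in depletion and -6.27, -5.95 and -5.36 in supply. Its difference was 0.76 ± 0.22. Myd88, an adaptor of Toll-like receptors, differed by 0.38 ± 0.13, and Ccl3 and Tnf by 1.02 ± 0.39 and 0.56 ± 0.24. Myd88 was 0.22 and Ccl3 0.67 without depletion replicate 1. With the authors' values, Cxcl1, Ccl3 and Tnf were 0.37, 0.37 and 0.34.

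**Figure D2:**
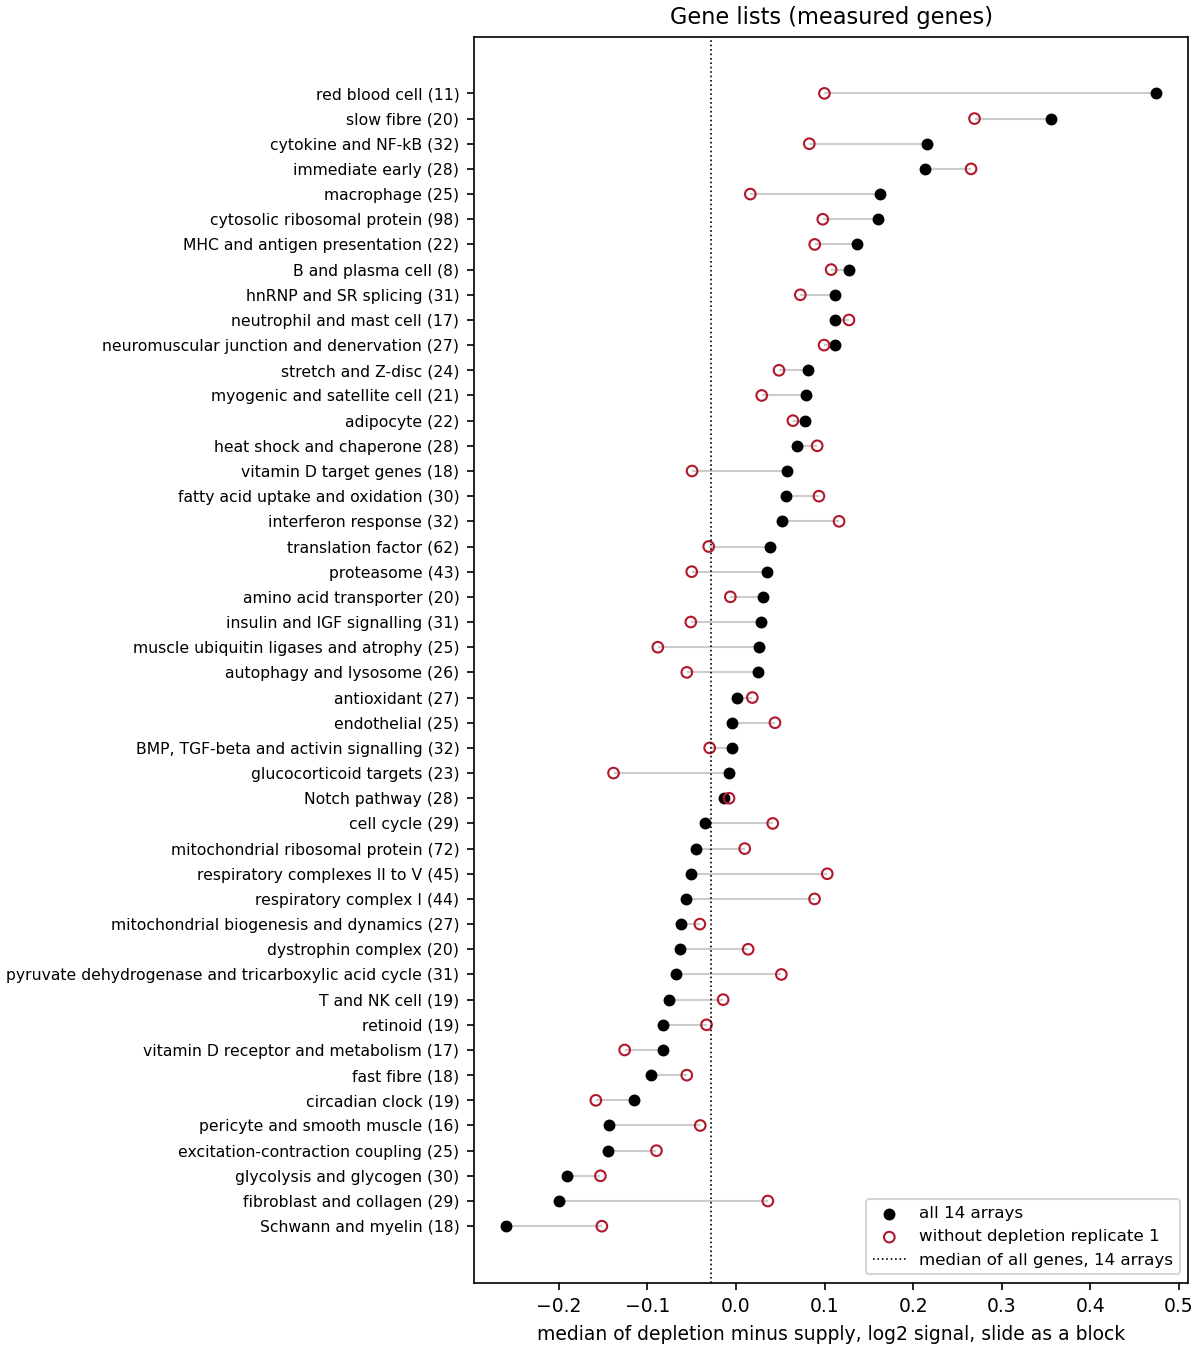
Median difference between depletion and supply (x axis, log2 signal with slide as a block) for 46 gene lists, with the number of measured genes in brackets. Filled points use all 14 arrays, open points leave out depletion replicate 1, and the dotted line is the median of all genes, -0.03. Red blood cell genes went from 0.47 to 0.10 and fibroblast genes from -0.20 to 0.04.

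**Figure D3:**
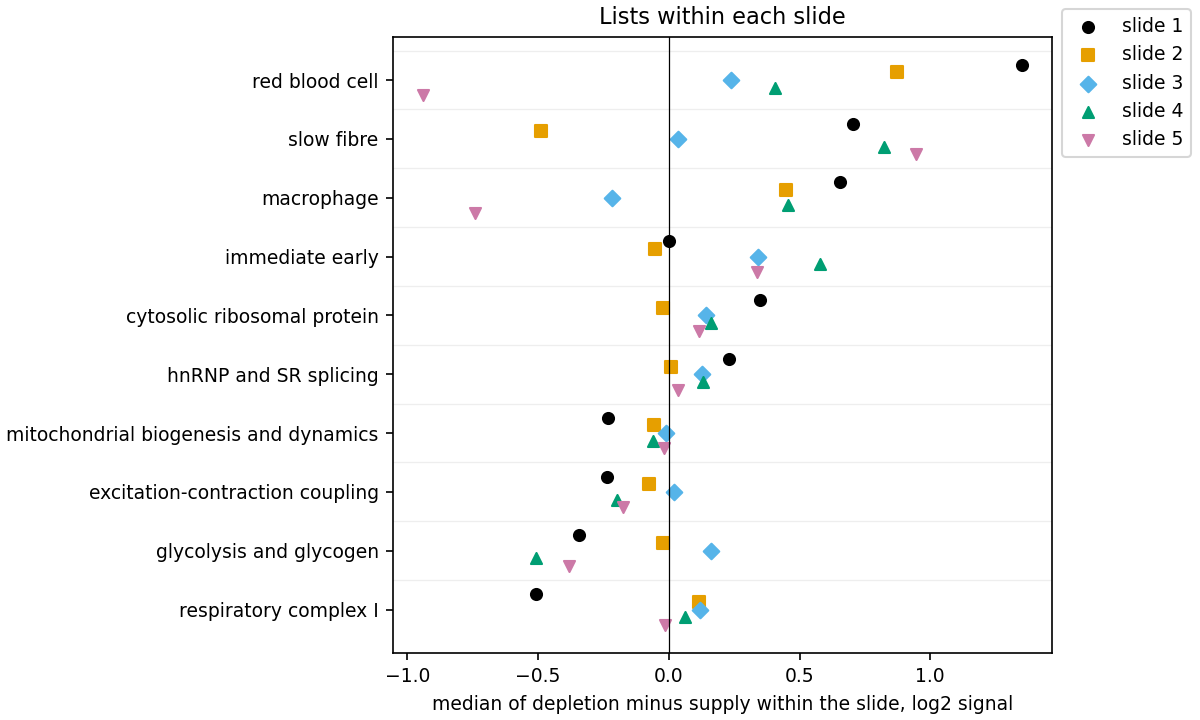
Median difference between depletion and supply within each of the 5 slides (x axis, log2 signal) for 10 gene lists. Slides are told apart by colour and shape. Slow fibre genes ran from -0.49 on slide 2 to 0.94 on slide 5, and splicing factors were above 0 on all 5.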

How the data were processed

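RNA of 14 plantaris muscles was labelled with 1 dye. The deposited scanner files give each spot's intensity, background-subtracted within each array by Agilent Feature Extraction 11.5.1.1, per the file headers. The deposited series table holds the authors' log2 values, normalized between arrays, and was used as an alternative. Per the submitters' processing notes limma was also used, without a version; the sources used here do not give its settings. Here, each array's 75th percentile was subtracted from the processed signals on the log2 scale, outlier spots were set to missing and spots of a probe averaged. A probe was used where 4 or more arrays had it well above background, with at least 2 values per diet, which left 26391 of 30367. Of these 30367 probes, 18438 were named by accession, 3594 by symbol and 1860 by the file, and 6475 had no name. A gene stands for its brightest kept probe. Probe positions are on rn4 and promoters on GRCr8.

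Depletion was fitted against supply with slide as a block in limma 3.58.1 (R 4.3.3), adjusted by Benjamini-Hochberg over probes. Tables and figures used Python 3.11.15, numpy 2.4.6, pandas 2.3.3 and matplotlib 3.10.9, and the fit was tested on simulated data. The members and the 46 gene lists were chosen with earlier results of these data known. By rule the text names the 12 genes per direction with the smallest p, genes of vitamin D metabolism, and 3 members of each of 8 lists farthest from the median of all genes; not all are printed, and some genes are not reported here. Alternatives were other blocks, background corrections (normexp, offset 50), normalizations, filters, array weights, the mean of a gene's probes, the authors' values and each array left out. The number of arrays limits the precision. Nothing says whether rats shared a litter or cage, so p values of the main fit measure the spread between these arrays within slides.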

Additional observations from a re-analysis of the deposited data

Results flagged for a closer look

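In the 82 genes named, 243 sets of arrays of 1 gene and 1 diet were searched for an array far from the rest of its diet by Dixon's criterion, and 13 were found. Chance gives about 1 in 20. Values are levels, with that of the nearest array of the diet after them. In depletion, replicate 1 was apart for Phaf1 (-2.93, nearest -3.32), Rxrb (-0.13, nearest 0.09), Cacna2d1 (2.71, nearest 3.28) and Mpdz (0.69, nearest 1.24). Replicate 2 was apart for Ap4e1 (-5.87, nearest -6.75), and replicate 3 for Rxrg (2.99, nearest 2.32) and Pam (-1.32, nearest -0.60). In repletion, replicate 1 was apart for Ccl3 (-5.42, nearest -6.22) and Lyz2 (4.07, nearest 3.65), replicate 3 for Gpd1 (3.61, nearest 4.26), and replicate 4 for Cyp27a1 (0.14, nearest -0.33). In control, replicate 2 was apart for Tra2b (1.39, nearest 1.17) and replicate 3 for Ankrd2 (5.67, nearest 4.39).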

How the results depend on the processing

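Under each planned setting limma called 0 probes between lack and supply, and the count at an unadjusted p under 0.05 (1735) was 1094 with no block, 1152 with the replicate block, 741 with depletion replicate 1 counted as supply and 779 with normexp. With 1 array left out it ran from 943 (without depletion replicate 1) to 2787 (without depletion replicate 2), and was 1061 without control replicate 4 or depletion replicate 5. Without depletion replicates 1 and 2, chosen after seeing the data, 1 probe was called. Genes without overlap numbered 12, against 38 without depletion replicate 1 and 140 without both. Of the 1735 probes, 627 lay higher and 1108 lower, against 868 and 988 with the authors' values and 284 and 868 with the replicate block. Cyp27b1 reversed to 0.000965 with no block and 0.015 with the replicate block, and ran from -0.127 to 0.0162 with 1 array left out. The dimmer probe of Mpdz, at a mean level of -2.34, had the smallest p of all probes (-0.70 ± 0.10). By its brightest probe Mpdz reversed to 0.0188 with no block and 0.0704 with depletion replicate 1 counted as supply or left out. It also reversed to 0.0118 with array weights and 0.0167 without both arrays, and ran from -0.143 to 0.0704 with 1 array left out. Apart from the genes of vitamin D metabolism, the named genes were chosen by their values in the main fit on largely the same arrays. That made a kept direction likely beforehand, and no share over all genes is given. Over all named genes and settings, 2360 of 2369 values kept their direction, and the 9 exceptions were those of Cyp27b1 and Mpdz. The causes were not tested. Over 12 pairs of arrays with the same replicate number the correlation of deviations ran from -0.489 to 0.717. It was above 0.1 for all 5 pairs on 1 slide, but of the 7 pairs across slides 3 were above 0.1 and 4 below 0, and 4 of 12 arrays correlated best with their own number. Since not every pair was above 0.1, the numbers were not taken to pair the arrays.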
